A study of Bos taurus with 25 samples.

Results

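The levels of 9 genes of glutathione metabolism are described in hepatic and mammary tissue of lactating dairy cows: GCLC, GCLM and GSS, which make glutathione, and GSTA1, GSTA2, GSTA5, GSTM1, GSTM3 and GSTP1, which encode glutathione transferases. Probes were found by name, as all probes that are not controls and whose transcript is paired with one of the 9 gene symbols, and 18 of the 43653 different probes on the array were found, or 9 of 27827 genes and unpaired names. Of the 9 symbols, 7 are current bovine symbols and 2 (GSTM1 and GSTP1) were found as a synonym of a bovine gene. A further 2 probes of a gene whose synonyms include GSTM1 and another mu class symbol were left out, since the name does not settle which gene they measure.

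The arrays are 1-colour Agilent bovine arrays, each with the labelled total RNA of a single biopsy from a multiparous Holstein cow, taken 64 ± 3 days after calving. All cows were lactating and received a weekly intramuscular injection of 5 mL from before calving. In the control group the injection was saline, with 3 arrays per tissue. In the B9 group it held 320 mg of folic acid (pteroylmonoglutamic acid), with 3 arrays per tissue. In the B12 group it held 10 mg of cyanocobalamin, a form of vitamin B12, with 4 arrays per tissue. The B9 + B12 group had both doses, with 2 liver and 3 mammary arrays. The 25 arrays came from 13 cows, 12 of which gave both tissues, and each cow received 1 treatment only.

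Glutathione is a small thiol that reduces peroxides and is joined to reactive compounds before they leave the cell. GCLC and GCLM are the catalytic and the modifier subunit of glutamate-cysteine ligase, which carries out the limiting step of its synthesis, and GSS, glutathione synthetase, adds glycine. The glutathione transferases join glutathione to electrophiles, and their cytosolic classes are named by Greek letters: alpha (GSTA genes), mu (GSTM genes) and pi (GSTP1). The liver is the main organ that exports glutathione, and alpha class transferases are among its abundant cytosolic proteins. Folate and vitamin B12 serve the remethylation of homocysteine to methionine, and homocysteine is also the precursor from which the liver makes cysteine for glutathione.

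Within a tissue, values are the log2 values of the authors' processed table, in which the arrays of each tissue were normalized apart. Levels of the tissues are therefore compared only on values normalized here over all 25 arrays. Levels of different probes are never set against each other, because probes differ in how brightly they bind. A gene is described by its brightest probe. A probe was called changed when its Benjamini-Hochberg adjusted p by limma was at most 0.05 and its change at least 2-fold. Each tissue is a mixture of cells, so fewer cells of a type and less RNA per cell cannot be told apart.

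Between 71.2% and 84.2% of all probes were well above background on the liver arrays, and between 64.4% and 76.5% on the mammary arrays. No probe of these genes was saturated or called an outlier on any array. The liver arrays of cow 57 (B9) and cow 32 (B9 + B12) stood apart, with mean correlations to the other liver arrays of 0.972 each, against 0.986 to 0.988 for the other 10. The hepatocyte markers, 11 of 12 measured, had a mean log2 value between 17.90 and 18.10 on every liver array and between 7.24 and 8.56 on 12 of the mammary arrays. The mammary array of cow 57 (B9) had a higher mean, at 9.51. By the log2 of their summed signal the highest gland was instead one of the B12 group, at 14.4. Milk protein genes and other secretory markers, 7 of 8 measured, had a mean between 17.69 and 17.98 in the mammary gland and between 7.49 and 10.74 in the liver. The 3 liver arrays of cows 43, 37 and 32 shared a slide and were scanned on a later day than the other 22 arrays.

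No gene of glutathione synthesis or of the transferases was called changed by limma for any vitamin treatment in the liver. GSTA5 had the largest difference of the 9 genes. In cows given both vitamins it lay 1.38 lower on the log2 scale than in control cows, and both of these cows were below every control cow. GCLM, the modifier subunit, lay 0.73 lower in the same comparison. The adjusted p was 0.66 for both genes, and the whole table held no probe that limma called for B9 + B12.

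Among synthesis genes, GCLC had log2 values of 6.18, 6.44 and 6.30 in the livers of control cows 42, 43 and 51. It ranged from 6.25 to 6.63 in the B9 group, from 6.24 to 6.70 in the B12 group and was 6.39 and 6.63 in the B9 + B12 group. The groups overlapped in every comparison. GCLM was at 11.70, 11.46 and 11.85 in control livers. It was at 11.38, 11.73 and 10.74 in B9 cows 39, 41 and 57, and at 11.52, 11.68, 11.68 and 11.56 in B12 cows 36, 37, 40 and 52. In B9 + B12 cows 32 and 38 it was at 10.48 and 11.40. Both lay below the control range, the first by about a unit and the second by less than the spread among controls. The difference of B9 + B12 from control was −0.73 (SE 0.30, 95% confidence interval −1.39 to −0.08), with a limma adjusted p of 0.66 and an exact permutation p of 0.1, the smallest that 2 against 3 arrays allow. Without cow 32 it was −0.27, and without cow 38 it was −1.19. Within the later scan day, the 1 treated liver lay 0.98 below the 1 control on the log2 scale, and within the other scan day the 1 treated liver lay 0.38 below the mean of 2 controls.

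The brightest probe of GSS was at 9.03, 9.28 and 9.13 in control livers, between 9.15 and 9.74 in the B9 group and between 9.18 and 9.46 in the B12 group. It was at 9.91 and 8.94 in the B9 + B12 group, so that the control values lay between those of the 2 treated cows. Its second probe was above all controls in all 4 B12 livers, but only by 0.13 on the log2 scale (SE 0.16; limma adjusted p = 1).

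In the alpha class, GSTA1 was at 17.18, 16.79 and 17.08 in control livers, and GSTA2 at 15.78, 16.25 and 15.81. GSTA1 ranged from 15.70 to 17.63 in the B9 group, more widely than in the other groups, with cow 57 lowest and cow 41 highest. It ranged from 16.51 to 17.26 in the B12 group and was 16.55 and 16.69 in the B9 + B12 group, just below the lowest control. That difference was −0.40 (SE 0.44; limma adjusted p = 0.75; exact permutation p = 0.2), and −0.68 (SE 0.41; limma adjusted p = 0.66) by the second GSTA1 probe. GSTA2 overlapped the controls in all 3 treated groups, from 14.96 in cow 57 and cow 32 to 16.73 in B12 cow 52.

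GSTA5 was at 7.33, 7.12 and 7.13 in the livers of control cows 42, 43 and 51. In the B9 group it was at 6.59 in cow 39, 7.46 in cow 41 and 5.82 in cow 57. In the B12 group it was at 5.94 in cow 36, 6.56 in cow 37, 7.01 in cow 40 and 7.36 in cow 52. In the B9 + B12 group it was at 5.46 in cow 32 and 6.16 in cow 38. Each treated group was more spread than the controls, and 2 of 3 B9 livers, 3 of 4 B12 livers and 2 of 2 B9 + B12 livers lay below all of them. The second GSTA5 probe gave 6.76, 6.33 and 6.57 in controls, 4.98 and 5.70 in the B9 + B12 group, and followed the first over the 12 livers (Pearson r = 0.984, a description of probes on the same arrays).

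The change of GSTA5 in B9 + B12 livers was −1.38 (SE 0.47, 95% confidence interval −2.42 to −0.35), a 2.61-fold lower value, with a limma adjusted p of 0.66 and an exact permutation p of 0.1, the smallest possible here. By the second probe it was −1.22 (SE 0.49), with the same adjusted p, 0.66. With Cyber-T, the test that the study's methods name, the adjusted p was 0.105 for the brightest probe and 0.0403 for the second, which was therefore called. The brightest probe was well above background on all 12 liver arrays and the second on 10. On simulated data for this comparison, with 200 changed probes, Cyber-T made 124 false calls and limma 9. They found 97% and 91.5% of the changes. The simulation gave every group the same spread, taken from limma, whereas GSTA5 was more spread in the treated groups. In B9 livers the difference was −0.57 (SE 0.42; limma adjusted p = 0.89) and in B12 livers −0.48 (SE 0.39; limma adjusted p = 1). The interaction of B9 with B12 was not called for any of the 9 genes in the liver. The 3 comparisons share their 3 control livers.

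The GSTA5 values depended on single cows, and the lowest livers for both GSTA5 (5.46 and 5.82) and GCLM (10.48 and 10.74) were those of cows 32 and 57, whose arrays stood apart from the others. That of cow 32 also had the lowest median signal over background of the liver arrays (2.30, against 3.23 to 10.47). The part of array quality in these values was not tested. Without cow 32 the B9 + B12 difference was −1.04, and without cow 38 it was −1.73. The B9 difference was −0.17 without cow 57 and −0.99 without cow 41. With the slide as a fixed block it was −1.61, but that value rests on cow 57, the only B9 liver that shared a slide with other livers. The B12 difference was −0.22 without cow 36. Within the scan day that holds 1 control and 1 B9 + B12 liver the difference was −1.67, and within the other, with 2 controls and 1 treated liver, it was −1.07. The mean of the milk secretory markers was 8.03 to 8.08 in control livers. It was 8.22, 8.39 and 9.56 in B9 cows 39, 41 and 57, and 10.74, 10.42, 9.09 and 7.49 in B12 cows 36, 37, 40 and 52. It was 8.46 and 8.83 in B9 + B12 cows 32 and 38. All treated livers but that of cow 52 were thus above the controls, and they include cow 41, the highest of all for GSTA5. By the log2 of the summed signal of the same markers, the B9 and B9 + B12 livers were instead below the controls, with 15.7 to 16.1 in controls, 15.0 to 15.7 in the B9 group, 15.3 to 16.1 in the B12 group and 15.1 to 15.4 in the B9 + B12 group. Lymphoid markers had means of 9.01 to 9.48 in both B9 + B12 livers, above 8.15 to 8.88 in controls, and summed signals of 12.53 to 13.03 against 11.9 to 12.4. Bile duct markers were also above the controls by both measures, with means of 8.16 to 8.22 against 8.08 to 8.13 and sums of 12.03 to 12.04 against 11.64 to 11.81. Endothelial and myoepithelial markers were above the controls by their means (10.28 to 10.45 against 10.02 to 10.22, and 8.54 against 8.08 to 8.43) but not by their sums (13.16 against 13.04 to 13.29, and 15.13 to 15.23 against 14.87 to 15.33). In all 4 B12 livers endothelial markers were below every control by both measures (means of 9.76 to 10.01 and sums of 12.72 to 13.03). The part of these transcripts in the GSTA5 values was not tested.

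**Figure D1:**
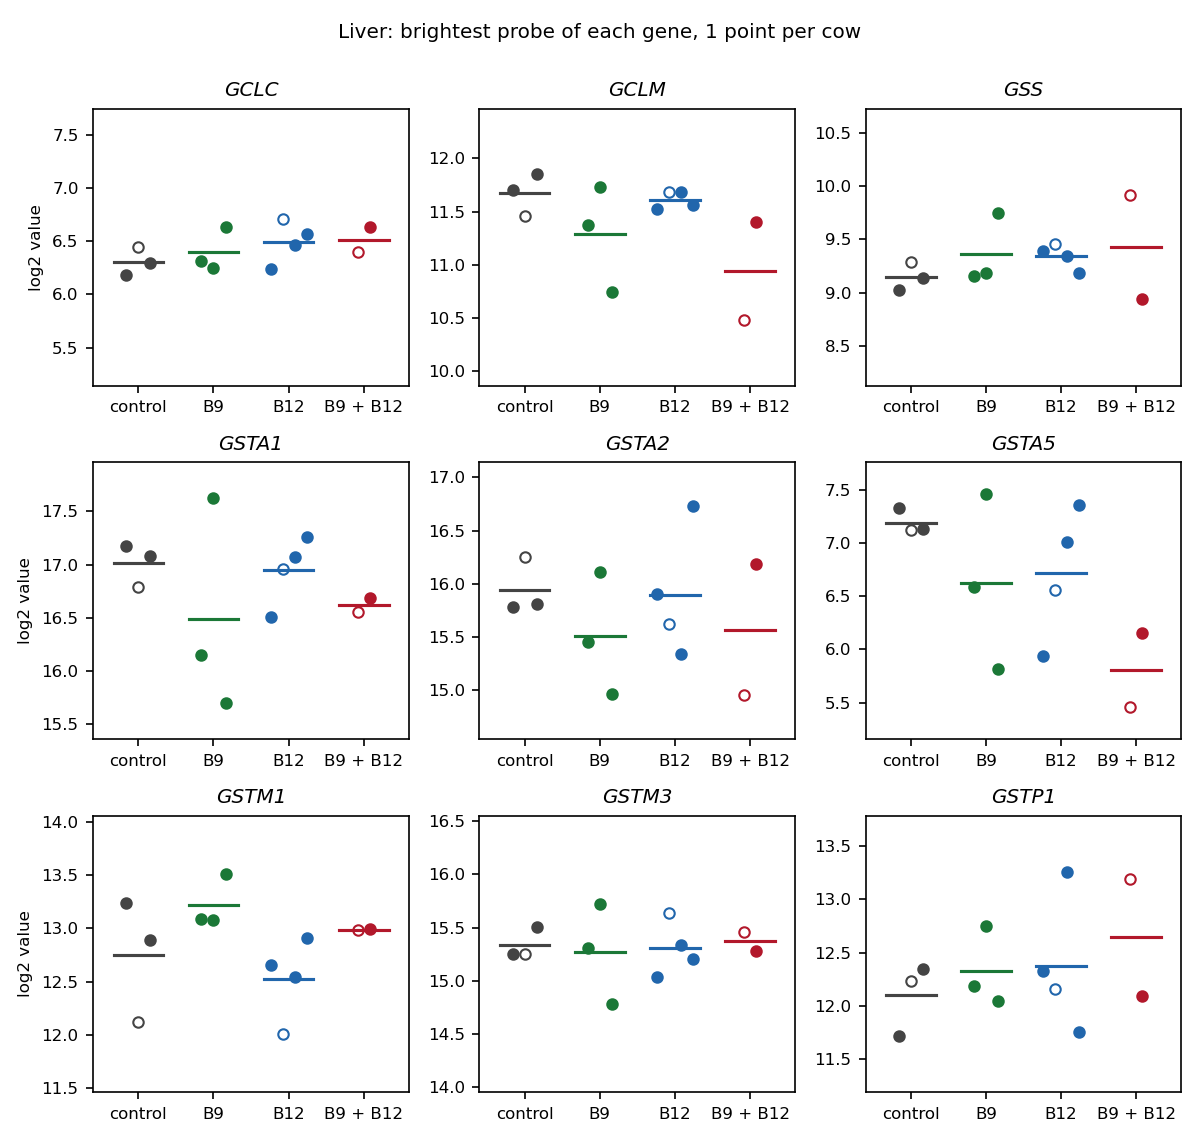
Log2 values of the brightest probe of each of the 9 genes in 12 liver biopsies (vertical axes, log2 units, each panel with its own range), by treatment group (horizontal axis). Each point is 1 cow, open points were scanned on the later day and horizontal lines are group means. Both B9 + B12 cows lie below the controls for GSTA5 (5.46 and 6.16 against 7.12 to 7.33), while most panels show overlapping groups.

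In the mu and pi classes, the brightest GSTM1 probe was at 13.24, 12.12 and 12.89 in control livers, and all 3 treated groups (12.01 to 13.51 together) overlapped this range. GSTM1 has 4 further probes, which gave a different picture of the cows. Over the 12 livers they correlated with each other with r between 0.898 and 0.972, but with the brightest probe with r between 0.0912 and 0.402. One of them, below all controls in 4 of 4 B12 livers, differed by −0.62 (SE 0.33), with a limma adjusted p of 1 and an exact permutation p of 0.0286, the smallest that 4 against 3 arrays allow. GSTM3 was nearly level, at 15.25, 15.25 and 15.50 in controls and between 14.79 and 15.72 in the treated livers. GSTP1 was at 11.71, 12.24 and 12.34 in controls and spread from 11.75 to 13.26 among treated livers, highest in B12 cow 40 and in B9 + B12 cow 32 (13.19).

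Counted over probes, 0 of 18 were called by limma for B9, for B12 and for B9 + B12 in the liver, where 0%, 0.00229% and 0% of all probes were called. At an unadjusted limma p under 0.05 the counts were 0, 0 and 3 of 18 (16.7%), against 3.42%, 1.99% and 5.98% of all probes, and the 3 probes belong to 2 genes, GSTA5 and GCLM. The study had already listed GSTA5, both of whose probes are among the 3, as down-regulated in B9 + B12 livers on these arrays. The B9 + B12 counts are thus not independent of that listing. Treated and control livers did not overlap for 0, 2 and 5 of 18 probes (27.8% for B9 + B12), against 8.44%, 4.96% and 21.7% of all probes, so that the last share is near that of the array. Cyber-T called 0, 0 and 1 of 18, against 0.0115%, 0.11% and 0.0596% of all. For the interaction of B9 and B12, 0 of 18 probes were called and 0 had an unadjusted p under 0.05, against 0% and 3.84% of all. By the brightest probe of each gene, the median difference of the 9 genes was −0.07 for B9, −0.05 for B12 and 0.03 for B9 + B12, with 5, 6 and 4 of 9 below 0, where the median of all genes was 0.01, −9.73e-05 and 0.03. Over the 18 probes, of which 5 measure GSTM1, it was −0.32, −0.12 and −0.36.

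The 6 genes other than GSTA5, GCLM and GSTA1 differed from control by between −0.38 (GSTA2) and 0.55 (GSTP1) for B9 + B12. For B9 and B12, the 8 genes other than GSTA5 differed by between −0.52 (GSTA1) and 0.47 (GSTM1), and between −0.22 (GSTM1) and 0.28 (GSTP1). The confidence intervals of the differences for B9 and B12 reached from −1.40 to 1.10 for B9 and from −0.90 to 1.08 for B12, so changes of 2-fold were within them for some genes.

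**Figure D2:**
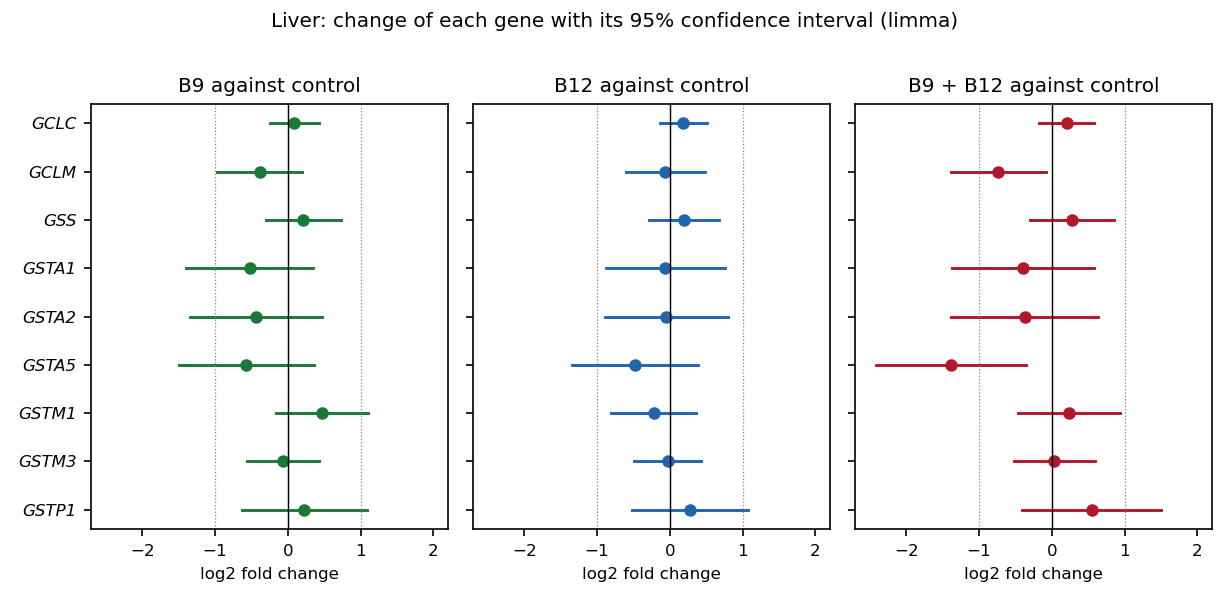
Log2 fold change of the brightest probe of each gene against control livers (horizontal axes, log2 units) for B9, B12 and B9 + B12, from limma with all 12 livers in the fit. Points are estimates, bars are 95% confidence intervals and dotted lines mark 2-fold. The bars of GSTA5 (−2.42 to −0.35) and GCLM (−1.39 to −0.08) for B9 + B12 do not reach 0, before any adjustment for the number of probes.

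The other measured genes of 10 lists of glutathione metabolism and its regulators (99 genes beside the 9) gave 0 genes called by limma and 0 by Cyber-T in each of the 3 liver comparisons and the 3 mammary ones. At an unadjusted limma p under 0.05, 3 (3.03%), 3 (3.03%) and 7 (7.07%) of these genes were found for B9, B12 and B9 + B12 in the liver by their brightest probe, against 3.11%, 1.85% and 6.09% of all genes. In the last comparison CDO1, cysteine dioxygenase, which draws cysteine into sulfite and taurine, differed by −0.65 (SE 0.19), and GGT7, of the gamma-glutamyltransferase family, by 0.77 (SE 0.20). GSTO1, the omega class transferase, differed by 1.41 (SE 0.56) for B9 and 1.54 (SE 0.63) for B9 + B12. MAFG, a partner of the factor NRF2 at antioxidant response elements, differed by 0.41 (SE 0.17), 0.45 (SE 0.16) and 0.67 (SE 0.19) for B9, B12 and B9 + B12. NFE2L2, the gene of NRF2 itself, differed by −0.10, 0.04 and −0.19 in the same order. The NRF2 list went both ways for B9 + B12, from −1.04 (UGDH) to 0.99 (SQSTM1). The limma adjusted p of these changes was at least 0.66.

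In the mammary gland, no gene of the set was called changed by limma or Cyber-T for any treatment. GCLM was highest in cows given B9 alone and lowest in those given both vitamins, within less than a unit. GSTA1, GSTA2 and GSTA5 were at or near background in nearly all mammary biopsies. The synthetase GSS varied most between cows, with an SD of 0.72 over the 13 glands.

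GCLM was at 7.24, 7.49 and 7.29 in the mammary gland of control cows 42, 43 and 51, and at 7.62, 7.66 and 7.65 in the B9 group. All 3 B9 cows were above all controls, by 0.30 in the means (SE 0.10, 95% confidence interval 0.07 to 0.53; limma adjusted p = 1; exact permutation p = 0.1, the smallest for 3 against 3 arrays). Lymphoid markers were below all controls in the same 3 glands (means of 7.55 to 8.08 against 8.17 to 8.47, sums of 10.92 to 11.36 against 11.37 to 12.08), and bile duct markers were above them by their sums (15.01 to 15.18 against 14.47 to 14.94) but not by their means. The part of these transcripts in the GCLM values was not tested. The B12 group was at 7.42, 7.56, 7.47 and 7.54, and the B9 + B12 group at 7.12, 6.96 and 7.31 in cows 31, 32 and 38. Both groups overlapped the controls. The interaction of B9 with B12 was −0.67 (SE 0.14, 95% confidence interval −0.98 to −0.36), with a limma adjusted p of 1.00 over all probes. Milk secretory markers were below all controls in the B12 glands (means of 17.69 to 17.85 against 17.86 to 17.93, sums of 20.81 to 20.87 against 20.90 to 20.92). Adipocyte markers were above all controls in the B9 + B12 glands by their sums (15.53 to 15.58 against 15.09 to 15.40) but not by their means. The part of these shifts in the interaction was not tested.

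GSS was at 9.29, 10.01 and 9.82 in control glands, and at 10.02, 10.26 and 8.83 in B9 cows 39, 41 and 57. It ranged from 9.31 to 10.57 in the B12 group and was 10.13, 8.93 and 8.23 in the B9 + B12 group. The groups overlapped. GCLC stayed within 4.93 and 5.34 over the 13 glands and was well above background on 7 of them.

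GSTM1, GSTM3 and GSTP1 were well above background on all 13 mammary arrays, by every probe. The brightest GSTM1 probe was at 12.37, 12.23 and 12.61 in control glands and between 12.34 and 12.90 in 7 of the treated ones. It was at 11.07 in B9 cow 57, 11.47 in B12 cow 52 and 11.76 in B12 cow 37. GSTM3 ranged from 12.01 to 12.87 and GSTP1 from 11.25 to 12.11 over all glands, and every treated group overlapped the controls.

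GSTA5 was not well above background on any of the 13 mammary arrays by either probe, so no fold is given for it between mammary groups. Its brightest probe was between 4.49 and 5.03, and is 1 of the probes counted below at an unadjusted p under 0.05 and without overlap for B9 and B12. GSTA1 was well above background on 3 mammary arrays, at 6.65 in B9 cow 57, 5.27 in B9 + B12 cow 32 and 5.22 in B9 + B12 cow 31, and was between 4.75 and 4.98 on the other 10. GSTA2 was well above background only in cow 57, at 5.83, and lay between 4.60 and 5.03 elsewhere. Cow 57 was therefore the highest of all glands for both genes, and the other B9 cows (4.76 and 4.79 for GSTA1, 4.82 and 4.84 for GSTA2) lay below or within the controls.

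The same mammary array held the highest levels of the hepatocyte transcripts ALB (albumin, 10.5), AHSG (8.28) and FGA (9.33). ALB was at 7.70 in cow 31, 6.64 in cow 43 and 6.55 in cow 32, and at 5.56 or less in the other 9 cows. By contrast, HPX and FGG, which also belong to the hepatocyte markers, were at 9.64 and 10.6 in cow 57, within the range of the other glands. All 11 hepatocyte markers measured were well above background in cows 57, 31 and 43, and between 6 and 10 of them in the other glands. The log2 of their summed signal was 12.8 to 13.2 in controls, 12.9 to 13.8 in the B9 group, 12.5 to 14.4 in the B12 group and 12.4 to 13.7 in the B9 + B12 group. The part of these transcripts in the mammary values of GSTA1 and GSTA2 was not tested.

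**Figure D3:**
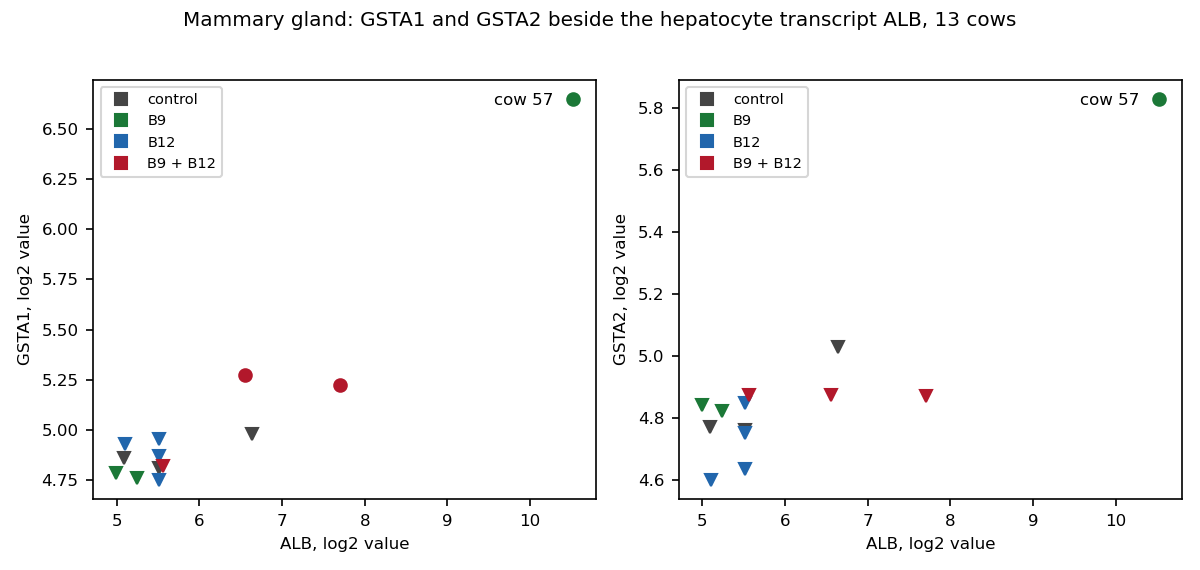
Log2 values of GSTA1 and GSTA2 (vertical axes) against ALB, a hepatocyte transcript (horizontal axes), in 13 mammary biopsies, all in log2 units of the processed table. Circles were well above background and triangles were not, and colours are treatment groups. Cow 57 of the B9 group is highest on both axes (ALB 10.5, GSTA1 6.65, GSTA2 5.83).

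In the mammary gland, 0 of 18 probes were called by limma for B9, B12 and B9 + B12, as were 0%, 0% and 0% of all probes. At an unadjusted limma p under 0.05 there were 2, 1 and 0 of 18, against 2.6%, 2.25% and 1.98% of all probes, and they are the brightest probe of GSTA5 and, for B9, that of GCLM. Groups did not overlap for 2, 1 and 0 of 18, against 7%, 3.86% and 6.88% of all. Cyber-T called 0, 0 and 0 of 18, against 0.0275%, 0.0275% and 0.0229% of all. For the mammary interaction of B9 and B12, 0 of 18 probes were called and 2 had an unadjusted p under 0.05 (GSTA5 and GCLM), against 0% and 3.22% of all probes.

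**Figure D4:**
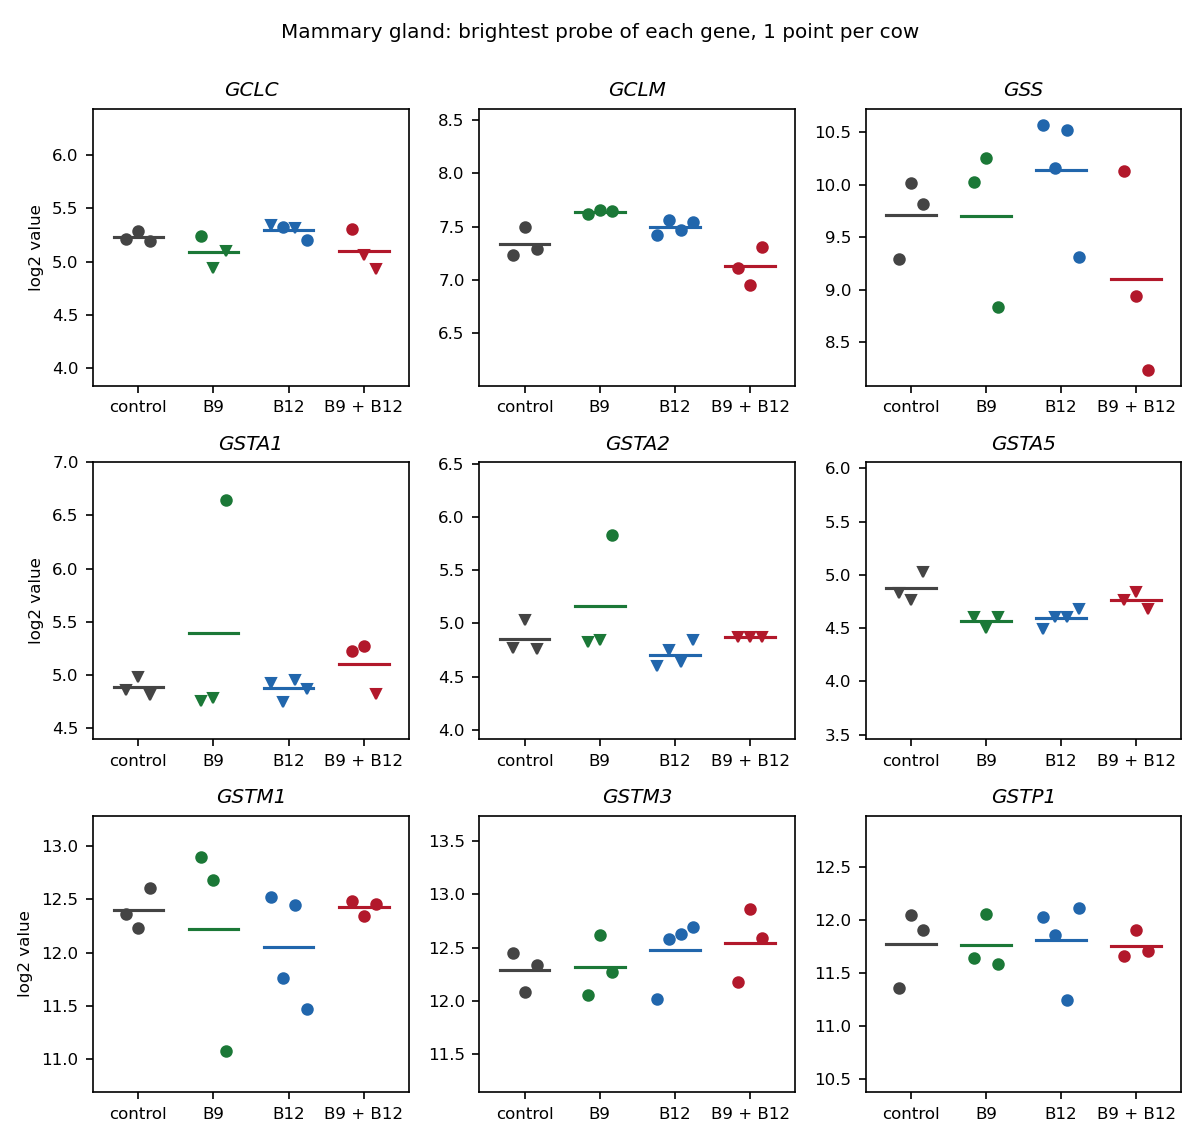
Log2 values of the brightest probe of each gene in 13 mammary biopsies (vertical axes, log2 units, each panel with its own range), by treatment group (horizontal axis). Each point is 1 cow, triangles were not well above background and lines are group means. The B9 mean of GSTA1 and GSTA2 rests on 1 cow (6.65 and 5.83), and GCLM in B9 cows (7.62 to 7.66) lies above the controls (7.24 to 7.49).

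Whether a treatment acted differently in the tissues was tested by a contrast of the liver change with the mammary change. Of 18 probes, 0 were called for B9, B12 and B9 + B12, as were 0%, 0% and 0% of all probes. At an unadjusted p under 0.05 there were 2, 0 and 2 of 18, against 2.36%, 1.82% and 4.27% of all. They were GCLM for B9 and both GSTA5 probes for B9 + B12, with the second GSTA1 probe for B9, which was well above background on 1 of 13 mammary arrays, that of B9 cow 57. The B9 change of GCLM was 0.64 lower in the liver than in mammary tissue on the log2 scale (contrast −0.64, SE 0.26; limma adjusted p = 1.00). It was −0.40 without the liver of cow 57, whose array stood apart, and −0.85 without that of cow 41. That of GSTA5 for B9 + B12 was 0.73 lower (contrast −0.73, SE 0.28; limma adjusted p = 0.83), with the mammary side at background. These contrasts are on the values normalized over both tissues, and for GSTA5 the contrast was −1.27 in the processed table (limma adjusted p = 0.74). On the values normalized over both tissues it was −0.57 without both arrays of cow 57 and the liver array of cow 32.

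GSTA1 and GSTA2 were well above background in every liver and in 3 and 1 of 13 mammary glands, and GCLM was 5.52-fold higher in the liver. GSS was 3.11-fold lower in the liver by its brightest probe, a call that was lost in the processed table, and 1.39-fold lower by its second probe, too little for a call. GSTP1 and the brightest GSTM1 probe were lower in the liver when both tissues shared a normalization and were close to the median of all probes in the processed table, in which each tissue was normalized apart. The cow as a block changed none of the calls of the 9 genes.

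Over the 18 probes, 8 were called higher in the liver, against 8.8% of all probes, and 3 lower, against 9.88% of all. The first 8 belong to GSTA1, GSTA2, GSTM1 and GCLM and the other 3 to GSTM1, GSTP1 and GSS. The normalization mattered, since the median difference of all probes was −0.03 in these values (quantiles over 25 arrays), −0.48 for the scanner's processed signal divided by its 75th percentile and 0.56 in the processed table. The share of called probes that were higher in the liver was 47.1%, 31.7% and 90.0% in the same order.

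GSTA1 had a mean of 16.1 ± 0.61 (SD, 12 arrays) in hepatic tissue and 6.21 ± 0.39 (SD, 13 arrays) in the mammary gland on the values normalized over both tissues. It was higher in the liver of 12 of 12 cows, by between 7.33 and 11.0 on the log2 scale within a cow, and the fitted difference was 9.80 (SE 0.20; limma adjusted p = 2.06e-19). GSTA2 was at 14.8 ± 0.59 and 6.09 ± 0.21, with a difference of 8.68 (SE 0.18; limma adjusted p = 2.14e-19). Since only 3 and 1 of 13 mammary arrays measured them above background, these sizes depend on the background correction, and they were 13.27 and 13.03 with the processed signal. GSTA5 was at 6.83 ± 0.40 in hepatic tissue and 5.98 ± 0.08 in the mammary gland, where it was not above background, so that it was at least 1.74-fold higher in the liver, measured against the lowest signal well above background (limma adjusted p = 2.48e-07). The size for GSTA5 also depended on the scaling. Its fitted difference was 0.81 here, 3.81 with the processed signal and 1.88 in the processed table, or 4.29 and 1.33 with the median of all probes taken off. Its liver values were above the mammary ones in 12 of 12 cows. Alpha class transcripts are close in sequence, and how far probes of one gene also bind another's transcript was not tested.

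GCLM was at 10.68 ± 0.38 in hepatic tissue and 8.17 ± 0.21 in the mammary gland, and was higher in the liver of 12 of 12 cows, by 2.46 (SE 0.09; limma adjusted p = 4.41e-15). It was higher under each of the other normalizations too, by 2.63, 2.83 and 3.97. GCLC, the catalytic subunit, was higher in the liver by 0.39 (SE 0.04; limma adjusted p = 3.00e-08), in 12 of 12 cows and without overlap, but under 2-fold. Its difference was 1.27 with the processed signal and 1.25 in the processed table, or 1.76 and 0.69 with the median of all probes taken off. GSS was at 8.78 ± 0.25 in hepatic tissue and 10.5 ± 0.74 in the mammary gland, and was lower in the liver of 12 of 12 cows, by 1.64 in the fit (contrast −1.64, SE 0.21; limma adjusted p = 1.13e-06). In the processed table its difference was only −0.34 (limma adjusted p = 0.122), and its second, dimmer probe went from −0.48 to 0.22. With the median of all probes taken off, the table gave −0.90 and −0.34 for these probes.

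The mu class genes differed from each other. GSTM3 was higher in the liver of 12 of 12 cows, by 0.97 (SE 0.12; limma adjusted p = 4.18e-07), at 14.3 ± 0.26 against 13.4 ± 0.29. This was just short of 2-fold, between 0.92 and 1.03 with single arrays left out, and it was 1.58 with the processed signal and 2.91 in the processed table. The 5 probes of GSTM1 disagreed. The 4 dimmer ones were higher in the liver of 12 of 12 cows, by between 2.17 and 3.63, and were so under every normalization. The brightest was lower in the liver of 11 of 12 cows, by 1.22 in the fit (contrast −1.22, SE 0.19; limma adjusted p = 1.44e-05), with the contrast at −0.75 with the processed signal and at 0.60 in the processed table. Once the median of all probes was taken off, these values were −0.26 and 0.04. GSTP1 was lower in the liver of 11 of 12 cows (contrast −1.15, SE 0.16; limma adjusted p = 3.07e-06), −0.73 with the processed signal and 0.59 in the processed table, or −0.25 and 0.03 with that median taken off.

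**Figure D5:**
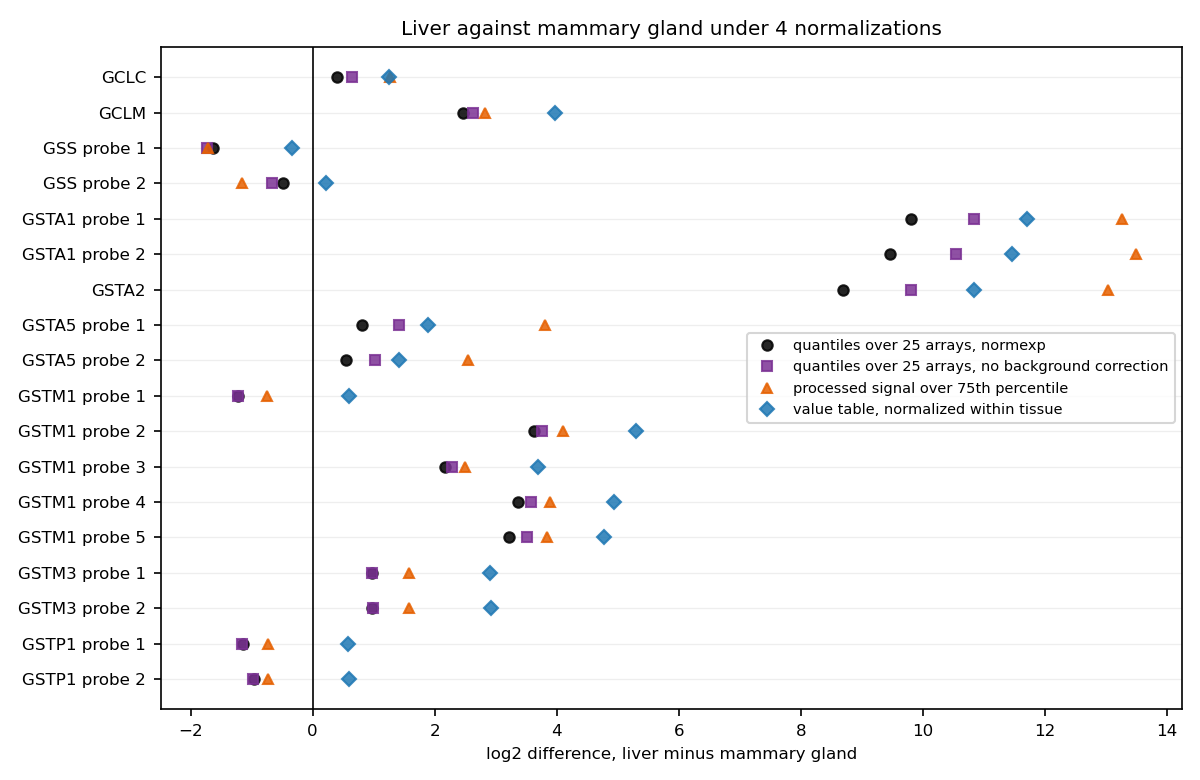
Difference between liver and mammary gland (horizontal axis, log2 units, liver minus mammary gland) of the 18 probes under 4 normalizations, given by symbol and colour. Probes of a gene are listed from the brightest down. GSTA1, GSTA2, GCLM and 4 GSTM1 probes lie right of 0 under each of them, whereas the brightest GSTM1 probe moves from −1.22 to 0.60 and GSTP1 from −1.15 to 0.59.

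Other genes of the pathway were counted as genes with a called probe. Of all genes on the array, 8.65% had a probe called higher in the liver and none lower, and 11.4% had one called lower and none higher. Of 8 measured genes of the alpha, mu and pi classes, 4 were higher in the liver, 1 was lower and 1 (GSTM1) was called both ways. Beside GSTA1 and GSTA2 the higher ones were GSTA4, by 3.66 (SE 0.29), and GSTA3, by 2.77 (SE 0.29). Of 11 measured transferases of other classes, 7 were higher and 2 lower. The largest differences were those of GSTT2 of the theta class, by 8.33 (SE 0.15), and GSTZ1, the zeta class enzyme of tyrosine breakdown, by 5.65 (SE 0.06). The lower genes were LTC4S, leukotriene C4 synthase, at −1.58 (SE 0.11), and PTGES, a prostaglandin E synthase, at −1.36 (SE 0.17).

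Of 9 measured genes of cysteine supply, 4 were higher in the liver and 2 lower. SLC7A9, a cystine transporter subunit, was not well above background in any gland and was at least 9.79-fold higher in the liver, and CDO1 was higher by 3.20 (SE 0.17). The amino acid carriers SLC1A4 and SLC3A2 were lower, at −3.11 (SE 0.16) and −1.49 (SE 0.13), and the latter was at −0.04 in the processed table, or −0.60 with the median of all probes taken off. Of 11 measured genes of glutathione breakdown, 1 was higher, GGACT (2.54, SE 0.08), and 4 were lower, led by GGT5 (−1.66, SE 0.21) and CHAC1 (−1.54, SE 0.20). Of 6 measured carriers of glutathione and its conjugates, 2 were higher, with ABCC5 at 1.25 (SE 0.18) by its brightest probe.

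Of 16 genes of glutathione peroxidation and reduction, 6 were higher and 1 lower. GPX3, the secreted glutathione peroxidase, was higher by 4.37 (SE 0.42), HAGH, a glyoxalase, by 3.31 (SE 0.08), and GPX8 was at −2.42 (SE 0.16). Of 15 thioredoxin and peroxide genes, 5 were higher, led by catalase (CAT), 6.03 (SE 0.10), and SOD1, 1.67 (SE 0.12), and 3 lower, led by PRDX2 (−2.48, SE 0.12) and PRDX1 (−1.70, SE 0.08). Of 20 genes of the NRF2 pathway, 9 were higher, led by OSGIN1 (5.10, SE 0.16) and UGDH (4.38, SE 0.16), and 4 lower, led by IDH1 (−1.84, SE 0.15) and PGD (−1.71, SE 0.10), which was at 0.11 in the processed table, or −0.44 with that median taken off. Of 9 regulators of transferase genes, 4 were higher, 1 was lower and 1 was called both ways. HNF4A, a factor that defines hepatocytes, was higher by 8.78 (SE 0.09). It was above background in 3 of 13 glands, and the size was 12.6 with the processed signal and 10.9 in the processed table. NR1I2, the pregnane X receptor, was not above background in any gland and was at least 22.7-fold higher. CEBPA (−1.48, SE 0.16) and CEBPB (−1.14, SE 0.22) were lower by their brightest probes, and were at 0.41 and 0.29 in the processed table, or −0.14 and −0.27 with that median taken off. The limma adjusted p of each gene named for these lists was at most 0.000114. Several further genes that were lower lost their call in the processed table. PTGES was there at −0.08, GGT5 at −0.47 and IDH1 at −0.31 (limma adjusted p = 0.66, 0.056 and 0.068), or −0.64, −1.02 and −0.87 with the median of all probes taken off. LTC4S, PRDX1 and PRDX2 were at −0.48, −0.23 and −0.74, under 2-fold, or −1.03, −0.78 and −1.30 with that median taken off.

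The genes whose log2 values went most closely with each member over the arrays of a tissue were looked up among 18293 liver probes and 16763 mammary probes that were above background on every array. These correlations are descriptions of 12 or 13 arrays that differ in treatment and array quality, and many probes were searched. In the liver, GSTA1 went with ALDH1A1 (r = 0.963), CAT (0.952) and ACSM1 (0.931), and GSTA5 with SCHIP1 (0.940), DPYS (0.936) and KLKB1 (0.931). GCLM went with UCHL5 (0.978) and IPO7 (0.976), and GSS with AP3S2 (0.974), APEX1 (0.971) and ARHGDIA (0.966). GSTA2 was closest to LOC512464 (0.918), MTMR2 (0.913) and PHF11 (0.902), and GSTP1 to ZBTB7A (0.915), TCF3 (0.912) and TK1 (0.904). The brightest GSTM1 probe was closest to RPL22L1 (0.945), RNPS1 (0.938) and PSMD8 (0.924). GSTM3 and GCLC had lower leading values, 0.870 (GNPTAB) and 0.884 (CCR7).

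In the mammary gland, GSTA1 went with APOC3 (r = 0.946) and A1BG (0.946), and GSTA2 with APOC3 (0.936) and A1BG (0.914). These partners are transcripts typical of hepatocytes, and both members were above background on only 3 and 1 of the 13 arrays. The brightest GSTM1 probe went with ABHD16B (0.984), FOSB (0.977) and CDC42EP2 (0.973). For GSS the closest was CORO1B (0.879), for GSTP1 SPTBN1 (0.876), for GSTM3 TUBG2 (0.851) and for GCLM ELN (0.834). GCLC and GSTA5 were closest to YAE1 (0.893) and SERF1B (0.810), with GSTA5 above background on none of the arrays.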

How the data were processed

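The scanner output that the authors deposited gives the intensity of every spot, its local background and calls for spots above background, saturated or outlying, before any normalization. They also deposited a table of processed log2 values. Image analysis was by Agilent Feature Extraction, version 10.7.3.1 per the file headers and 9.1 per the submitters' processing notes. The methods name normexp background correction and normalization between arrays, and the table differed from normexp (offset 16) with quantile normalization within each tissue by a median of at most 0.00728 on any array. Rows were joined by spot number, 43803 spots that are not controls gave 43653 probes, and 53.9% of probes were paired with a symbol. No genome positions are given, as the array's build was not used here, and no probe sequences were at hand. The number of arrays limits the precision.

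Treatments were compared within each tissue on the processed table by a limma fit over its 12 or 13 arrays (R 4.3.3, limma 3.58.1, data.table, version 1.17.8), and by two-sided exact permutation tests. Cows had been assigned to treatments within blocks of earlier milk yield. The sample labels do not give these blocks, so neither the fits nor the permutations used them. The tissues were compared on median intensities after normexp (offset 50) and quantiles over 25 arrays. A probe dim on every array of a tissue was given as a bound, against the lowest signal well above background. The named genes are the 9 members, with a change where groups do not overlap or the unadjusted p is under 0.05 (GSTA5 in the liver always), and for each list the 2 largest rises and 2 largest falls among called genes between tissues. GSTO1, CDO1, GGT7, MAFG, NFE2L2, UGDH and SQSTM1 under treatment, GSTA3, GSTA4 and the GPX3 range were chosen after their values were seen. The members, lists and tests were chosen with earlier results of these data known.

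The lists were synthesis, alpha, mu and pi classes, other classes, breakdown, redox, cysteine supply, transport, NRF2, thioredoxin and regulators. Of the marker lists of cell types, those of hepatocytes, milk secretory, lymphoid, endothelial, bile duct, myoepithelial and fat cells (adipocytes) are reported. Alternatives were other background corrections and scalings, outlier spots or dim probes left out, the slide as a block, a fit of the pair of groups alone, Cyber-T (window of 101 probes, confidence of 10), the mean of all probes, the cow as a block and each array left out. The scan day as a block and 3 arrays that stood apart left out were added after seeing the data. Between the tissues of a cow, deviations from the group means correlated with r between −0.246 and 0.246, above 0.1 in 4 of 12 cows. The cow is the same animal in both tissues and so pairs them. The limma fits of the treatment and tissue comparisons, and Cyber-T for the treatments, were checked on simulated data of known answer. In each treatment comparison Cyber-T made more false calls than limma and also found more of the true changes. The simulated spread of a probe was that of limma and equal in all groups. Some genes among those most like a member are not reported here. The quantitative PCR was not analysed here. In its results the paper reports no detectable difference of GSTA5 by quantitative PCR in the liver. Its discussion nevertheless names GSTA5 among genes that the vitamins modulated, some of them only as a trend.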

Additional observations from a re-analysis of the deposited data

Results flagged for a closer look

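In the mammary gland of the B12 group, GSTM3 was at 12.01 in cow 36, far below the other 3 cows of the group (12.58 to 12.69). Its gap to the nearest cow was 0.834 of the range of the group. This was 1 of 18 groups of 4 cows examined, and chance alone gives about 1 in 20.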

How the results depend on the processing

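The number of genes called was unchanged, at 0, for every treatment comparison and interaction under every alternative except 1. With Cyber-T, 1 gene (GSTA5, by its second probe) was called for B9 + B12 in the liver. Between the tissues, the 4 genes higher and 3 lower in the liver became 7 and 0 in the processed table and 7 and 1 with the processed signal over the 75th percentile. Of all 43653 probes, 3840 were called higher and 4314 lower on the values normalized over both tissues. Those counts became 14187 and 1569 in the processed table, and 6207 and 13401 with the processed signal. With single arrays left out, 4 to 5 of the 9 genes were higher and 3 lower, and 0 genes were called in every treatment comparison. With the cow as a replicate block, which pairs the tissues, there were 4 higher and 3 lower, and the block changed no other call. GSTM1 turned from −1.22 to 0.60 in the processed table and to 2.23 as the mean of its 5 probes, and GSTP1 turned from −1.15 to 0.59 in the table. With the median of all probes taken off, the table gave 0.04 and 0.03 for these. For single genes, 438 of the other values kept their call, 14 gained it and 4 lost it. The change of GSTA5 for B9 + B12 in the liver ranged from −1.73 to −1.04 with single arrays left out, and that of GCLM from −1.19 to −0.27. Without the 3 arrays that stood apart, the counts were again 0 under treatment and 4 and 3 between tissues. With 2 to 4 cows in a group, differences under 2-fold are within the confidence intervals of most genes, and signals near background limit GSTA5 in the liver and the alpha class in the mammary gland.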

Other observations

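GSTO1, of the omega class, stood apart in a single cow. In the mammary gland it was at 5.37 in control cow 43 and between 8.90 and 10.68 in the other 12 cows, and in the liver the same cow also had the lowest value, 10.5, against 11.1 to 13.3 in the other 11. The differences of GSTO1 from control include this cow among the 3 controls. GSTA4, of the alpha class, was lowest in both tissues in B9 + B12 cow 32, at 11.8 in hepatic tissue and 7.87 in the mammary gland. GPX3 in the liver ranged from 8.14 in B12 cow 52 to 15.3 in B9 cow 57, a wider range than that of any of the 9 genes in the same tissue.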
